A study of Rattus norvegicus with 16 samples.

Results

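The subunits of the AMPA and kainate receptors were followed across 6 groups of rat hippocampus. Members were chosen by name, as the probes that the scanner files assign to Gria1, Gria2, Gria3, Gria4, Grik1, Grik2, Grik3, Grik4 or Grik5. Of these 9 genes, 8 had a probe of that name, among 26583 distinct names on the array, and Grik1 had 0. This gave 12 probes of 30367 (7 for AMPA and 5 for kainate receptor subunits). All 12 were among the 22827 probes tested, and 11 of them were well above background on each of the 16 arrays where they had a value. Each array held labelled RNA from the whole hippocampus of an adult male Sprague-Dawley rat, collected 24 h after severe parasagittal fluid percussion traumatic brain injury (TBI) or at the equivalent time. The Naïve group (n = 3) had neither anesthesia, surgery nor drug, and the Sham group (n = 2) was anesthetized and prepared for injury but not injured. The TBI group (n = 3) was injured, and the TBI+PMI (n = 3), TBI+JM6 (n = 3) and TBI+E33 (n = 2) groups were injured and given PMI-006 at 250 mg/kg or JM6 at 400 mg/kg by oral gavage, or estradiol at 33 ug/kg, for which the labels give a subcutaneous route and the study's methods an intraperitoneal one. Replicates were described as biological, and the deposited labels do not say which of 2 amplification kits was used for which rat.

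AMPA receptors are the ligand-gated channels that carry most fast excitatory transmission in the hippocampus, and are assembled from the products of Gria1 to Gria4. The Gria2 subunit, once its transcript has been edited, makes the channel nearly impermeable to calcium, while Gria1 is prominent in pyramidal cells and is delivered to synapses during long-term potentiation. Kainate receptors are assembled from Grik1, Grik2 and Grik3, which form channels by themselves, and from Grik4 and Grik5, which reach the membrane only together with one of the former. In the hippocampus they are best known from the mossy fiber synapses of granule cells on CA3 pyramidal cells. Because whole tissue was measured, fewer cells of a type and less RNA per cell cannot be told apart.

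The probes on which the results turn are single strands of 60 bases, given 5′ to 3′ as the files hold them. The first set holds the probes of Gria1 and Grik4, which had the largest differences of TBI from Sham, and the Gria4 probe that differed between Sham and Naïve. These 3 probes are each printed at 10 places on the array.
Gria1 A_43_P15761: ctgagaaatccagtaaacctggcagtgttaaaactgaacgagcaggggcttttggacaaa
Grik4 A_42_P543670: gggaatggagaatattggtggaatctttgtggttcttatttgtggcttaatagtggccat
Gria4 A_42_P736258: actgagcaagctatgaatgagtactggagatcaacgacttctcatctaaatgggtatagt
By the files' annotation on rn4, the Grik4 probe lies at chr8:45514232-45514291 on the minus strand and the Gria4 probe, designed to transcript variant 3, at chr8:1016916-1016975 on the minus strand. The files give no position for the Gria1 probe, and exon and intron boundaries were not used here. The second set compares probes of related subunits with each other. No probe was compared with the transcripts of other subunits, so binding to those was not tested. The probes of Gria2 and Gria3 that share the longest run of identical bases were laid over each other. Of 50 aligned bases 36 were identical (72%), and capitals mark the 14 aligned bases that differ.
Gria2 A_64_P139295: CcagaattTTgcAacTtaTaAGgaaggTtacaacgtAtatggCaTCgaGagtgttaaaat
Gria3 A_44_P449764: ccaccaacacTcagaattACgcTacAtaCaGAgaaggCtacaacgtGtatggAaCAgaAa
The Gria2 probe lies at chr2:172269214-172269273 and the Gria3 probe at chrX:3459714-3459773, both on the minus strand. Over all pairs of member probes, the longest run of identical bases was 10.

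Values are scanner intensities divided by the 75th percentile of the probes well above background on the same array, on the log2 scale, so that 0 is the level of that percentile. On each array 16282 to 24984 probes were well above background. The Naïve, Sham and TBI arrays were scanned in 1 session (16282 to 18245 probes above background) and the drug arrays in another (20259 to 24984 probes), on 4 slides of 4 arrays, so that drug and session cannot be told apart. Markers of neurons were present in all groups (summed level 26.7 to 53.8), as were markers of CA field pyramidal cells (7.61 to 14.3) and of granule cells (0.154 to 0.738). The granule cell markers were lowest in TBI, at 0.154 to 0.215. Markers of the choroid plexus ranged from 0.18 to 149 between arrays, with 4.87 and 121 on the 2 Sham arrays.

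**Figure D1:**
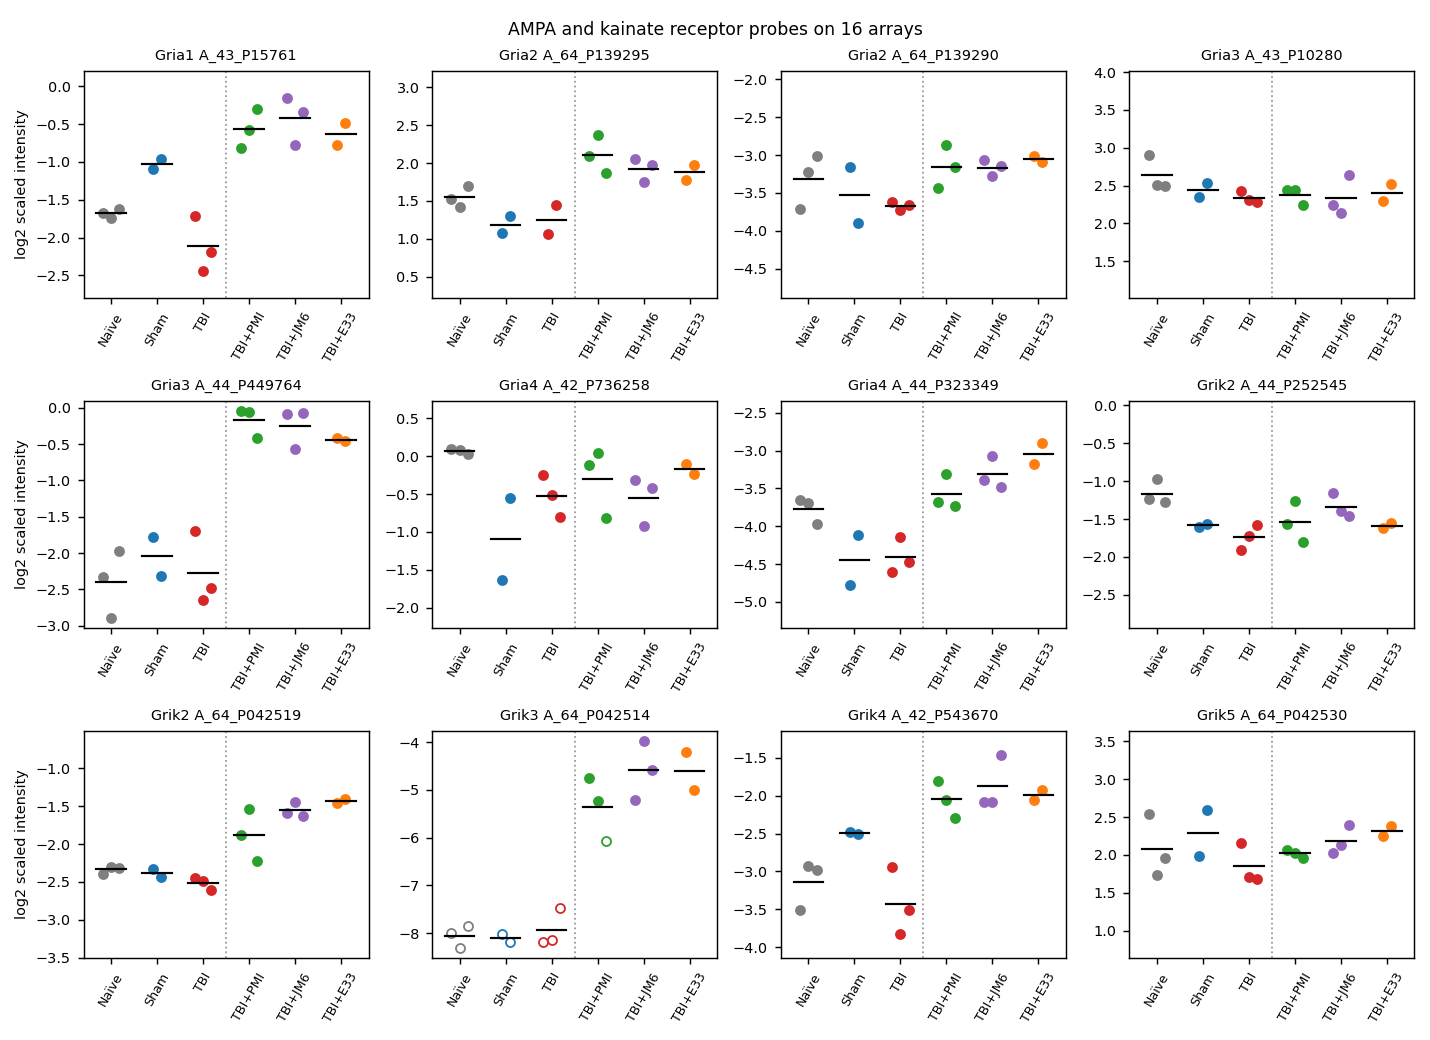
Log2 scaled intensity (y axis, 0 is the array's 75th percentile) of each of the 12 probes on each array, by group. Each point is 1 rat, open points are not well above background, black lines are group means and the dotted line separates the 2 scanning sessions. For Gria1 the 2 Sham arrays lie above all Naïve and TBI arrays, and for Gria3 A_44_P449764 all drug arrays lie above all others. The drug arrays also lie above all others for Gria1, Gria2 A_64_P139295, Grik2 A_64_P042519, Grik3 and Grik4. The share of all probes with this trait was not counted.

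The comparison of TBI with Sham asked what the injury itself did to receptor transcripts. Gria1 was lower in TBI than in Sham by 1.09 on the log2 scale, and no other member passed the test. Its level was -1.09 and -0.96 on the Sham arrays and -1.71, -2.44 and -2.19 on the TBI arrays. The groups did not overlap, and the Naïve arrays (-1.68, -1.75 and -1.62) lay between the Sham arrays and the TBI mean. The difference was 2.13-fold (log2 difference -1.09, SE 0.24, adjusted p = 0.0200 by limma, n = 3 and 2). Over the 10 spots of this probe on an array, the coefficient of variation was 8.01% at the median array.

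Grik4, which encodes a kainate receptor subunit found mainly in CA3 and dentate neurons, had the next largest difference. Its level was -2.48 and -2.50 on the Sham arrays and -2.94, -3.83 and -3.52 on the TBI arrays. These groups did not overlap either, but the difference of -0.94 (SE 0.28) did not pass the threshold (adjusted p = 0.0565 by limma). The Naïve arrays were at -3.51, -2.93 and -2.98, within the range of the TBI arrays. The 12 probes of the receptors thus gave 1 call, lower in TBI, against 9.41% of all probes called (6.49% lower and 2.93% higher). The median of the 12 differences was -0.14, against -0.03 over all probes tested. Arrays of TBI and Sham did not overlap for 3 of the 12 probes and for 41.8% of all probes.

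The call of Gria1 was lost with quantile normalization (adjusted p = 0.0509), normexp (0.234), the authors' matrix (0.0543), scaling to E1A control spots (0.338) and the compared groups alone (0.177), all with Gria1 lower in TBI. It was also lost without Sham 1 (adjusted p = 0.0802), Sham 2 (0.108), TBI 2 (0.0686) or TBI 3 (0.0690), with differences of -1.16 to -0.93, and stood at adjusted p = 0.00388 without TBI 1, a fit that also called Grik4 (adjusted p = 0.0116). TBI and Sham shared no slide. With slide as a block, linked through the Naïve arrays, the Gria1 difference was -1.18 with adjusted p = 0.728. Neuronal markers moved with Gria1: their summed level was 39.1 to 43.0 in Sham and 26.7 to 34.8 in TBI, 2 of 8 were called lower, and their part in the result was not tested. Granule cell markers were at 0.331 to 0.441 in Sham and 0.154 to 0.215 in TBI. Of the 4 tested, 1 was called lower and 0 higher, and their part was not tested either. Markers of CA field pyramidal cells overlapped between the groups, at 8.65 to 14.3 in Sham and 7.61 to 11.9 in TBI. Of the 6 tested, 1 was called lower and 0 higher, and their part was not tested.

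None of the remaining AMPA receptor probes was called between TBI and Sham. Gria2, read by a pair of probes 4045 bases apart, differed by 0.07 (SE 0.22) and -0.14 (SE 0.25), where the first value rests on 2 TBI arrays because the spot was marked as an outlier on TBI 1. Gria3 differed by -0.10 (SE 0.19) and -0.23 (SE 0.32). The Gria4 probe for variant 3 differed by 0.57, with a wide 95% interval of -0.15 to 1.30, and the probe for variant 1 by 0.04. Among the kainate receptor subunits, Grik2 differed by -0.16 and -0.13, and Grik5, the broadly expressed partner subunit, by -0.44 (95% interval -1.01 to 0.13). Grik3 was not well above background on any Naïve, Sham or TBI array, and no fold is given for it among these groups.

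Against Naïve rats, 0 of the 12 probes were called in TBI by limma, where 4.71% of all probes were called (1.73% lower and 2.98% higher), and 2 had an unadjusted p below the 0.05 threshold. The methods' t-test called 0 after adjustment, and 3 at an unadjusted p with a change of over 1.2-fold. In direction, 10 of the 12 probes were lower in TBI, with a median difference of -0.29 against 0.04 over all probes. The lowest was the Gria4 probe A_44_P323349, at -0.63 (SE 0.21, adjusted p = 0.110 by limma). It was followed by the Gria4 probe A_42_P736258 at -0.59 (SE 0.29, adjusted p = 0.271) and by the Grik2 probe A_44_P252545 at -0.57 (SE 0.17, adjusted p = 0.0724). Gria1 differed by -0.43 (SE 0.22), and by -0.49 within the slide that held 3 TBI arrays and 1 Naïve array. Arrays of TBI and Naïve did not overlap for 5 of the 12 probes, against 23.3% of all probes. The count of 10 lower probes depended on scaling. It was 7 with E1A control spots (median -0.01, against 0.32 over all probes) and 7 with normexp (-0.13, against 0.31). With quantile normalization it was 11 (-0.36, against -0.05).

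Sham was then set against Naïve, which asked what anesthesia and surgery alone changed. The Gria4 probe for variant 3 was the single member called, lower in Sham. Its level was 0.10, 0.09 and 0.02 on the Naïve arrays and -1.64 and -0.55 on the Sham arrays. The Naïve arrays stood close together while the Sham arrays differed from each other by more than 1 unit. The difference was -1.17 (SE 0.33, 2.24-fold, adjusted p = 0.0457 by limma). It was lost without Sham 1 (difference -0.62, adjusted p = 0.362) and without any of the Naïve arrays (adjusted p = 0.0866 to 0.0993), and stood at adjusted p = 0.0308 without Sham 2. With slide as a fixed block the difference was -1.19 (adjusted p = 0.252) and with the replicate block -1.25 (adjusted p = 0.0568), and the call was also lost with normexp, E1A control spots, no filter, a GC trend removed and the compared groups alone. On Sham 2 the spots of this probe had a coefficient of variation of 37.1%, against a median of 8.89% over the arrays. Of the markers of the thalamus, which borders the hippocampus, 1 of 3 tested was called lower in Sham, with a summed level of 0.142 to 1.34 in Naïve and 0.133 to 0.14996 in Sham, and their part in the result was not tested.

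Gria1 and Grik4 stood higher in Sham than in Naïve, by 0.66 (SE 0.24, adjusted p = 0.123 by limma) and 0.65 (SE 0.28, adjusted p = 0.195). Both missed the threshold, and both values were as large on the slide that held 2 arrays of each group (0.69 and 0.73). The other Gria4 probe was lower in Sham by 0.68 (SE 0.24, adjusted p = 0.106). Of all probes 8.08% were called in this comparison (1.52% lower in Sham and 6.57% higher), and arrays did not overlap for 6 of the 12 members and for 39.5% of all probes. The comparisons of TBI with Sham and of Sham with Naïve share the 2 Sham arrays.

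**Figure D2:**
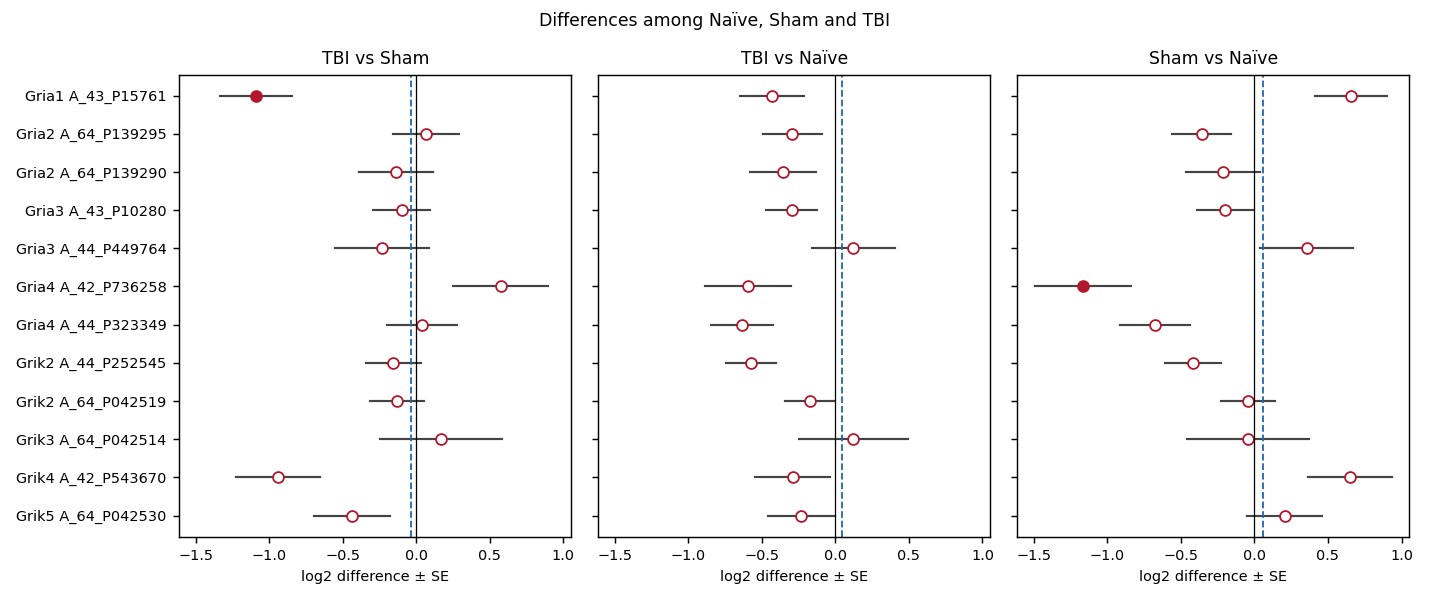
Log2 difference ± SE of the 12 probes for the 3 comparisons among the Naïve, Sham and TBI groups. Filled points passed the adjusted p threshold of 0.05, and the dashed line is the median of all probes tested. Gria1 at -1.09 in TBI vs Sham and Gria4 A_42_P736258 at -1.17 in Sham vs Naïve are the filled points.

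The drug groups were compared with TBI to ask whether treatment moved receptor transcripts. Most probes of the array stood higher in the drug groups than in TBI: the median difference over all probes tested, called the shift of all probes below, was 0.79 for TBI+PMI, 0.99 for TBI+JM6 and 1.08 for TBI+E33, and it was larger for dim probes than for bright ones (2.27 in the dimmest and 0.47 in the brightest of 4 classes of mean level for TBI+JM6). In counts, 7, 8 and 8 of the 12 members were called, higher in each case, where 56.7%, 70.1% and 70.3% of all probes were called (56.7%, 69.9% and 70.2% higher and 0.0482%, 0.175% and 0.092% lower). Arrays of the groups did not overlap for 8, 9 and 10 of the 12, against 62.6%, 73.2% and 85.1% of all probes. Without Grik3, which entered the test only through drug groups, 6, 7 and 7 of 11 were called, a count chosen after the data were seen. Counted by the brightest probe of each gene, 4, 5 and 4 of 8 genes were called. Of the 12 probes, 6, 5 and 5 lay above the median of all probes. The 3 comparisons share the TBI arrays.

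The Gria3 probe A_44_P449764 and the Gria1 probe stood furthest above this shift among the probes that were measured in all groups. The other and brighter Gria3 probe, A_43_P10280, lay below the shift in each comparison, with values given further on. The Gria3 probe A_44_P449764 was at -1.70, -2.64 and -2.48 on the TBI arrays. It was at -0.05, -0.06 and -0.41 on the TBI+PMI arrays, at -0.09, -0.57 and -0.08 on the TBI+JM6 arrays and at -0.41 and -0.46 on the TBI+E33 arrays. All drug arrays lay above all TBI arrays, by 2.10 (SE 0.28), 2.03 (SE 0.28) and 1.84 (SE 0.32), which is 1.31, 1.03 and 0.76 above the median of all probes. After quantile normalization, which makes the distribution of values the same on all arrays, the differences were 1.43, 1.204 and 0.98, of which those for TBI+PMI and TBI+JM6 were called and that for TBI+E33 had adjusted p = 0.0517 by limma.

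For Gria1 the drug arrays were at -0.81, -0.58 and -0.31 in TBI+PMI, at -0.15, -0.78 and -0.34 in TBI+JM6, and at -0.77 and -0.49 in TBI+E33. All lay above the 3 TBI arrays and above the 2 Sham arrays. The differences from TBI were 1.55 (SE 0.22), 1.69 (SE 0.22) and 1.48 (SE 0.24), or 0.76, 0.70 and 0.41 above the median of all probes. After quantile normalization they were 0.88, 0.87 and 0.63, the last with adjusted p = 0.124 by limma. For TBI+PMI and TBI+JM6, the calls of Gria1 and of this Gria3 probe held under all 18 alternatives run. Each alternative sets arrays of 1 scanning session against arrays of the other, so none can tell drug from session.

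Grik4 differed from TBI by 1.38, 1.55 and 1.44, or 0.59, 0.56 and 0.36 above the median of all probes, and by 0.53, 0.55 and 0.33 after quantile normalization, where no value was called. Grik3 was not well above background on any TBI array. In the drug groups it was measured, except on TBI+PMI 3, at -4.76, -5.24 and -6.06 in TBI+PMI, -5.20, -3.98 and -4.58 in TBI+JM6 and -4.20 and -5.01 in TBI+E33. The measured means were -7.93 in TBI and -5.35, -4.59 and -4.61 in the drug groups, which puts its level at least 1.53-fold higher in TBI+PMI, at least 2.599-fold higher in TBI+JM6 and at least 2.57-fold higher in TBI+E33, although with normexp background correction the difference for TBI+PMI turned to -0.12. The probe entered the test only through TBI+JM6 and TBI+E33, in which it was high, so these values are a description and no p-value is given. It is in the dimmest of the 4 classes, where the median difference of all probes was 1.91, 2.27 and 2.61.

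Gria4 A_44_P323349, for variant 1, was higher than in TBI by 0.83, 1.09 and 1.36, within 0.29 of the shift of all probes, and by quantile normalization it turned to -0.37, -0.32 and -0.14. It lay below the medians of its own class of mean level, which were 1.04, 1.26 and 1.37. Gria2 A_64_P139295 was higher by 0.86, 0.67 and 0.62 (2 TBI arrays), but turned to -0.12 and -0.21 for TBI+JM6 and TBI+E33 when the percentile was taken over all probes. In its class, the brightest, the medians were 0.35, 0.47 and 0.50. Grik2 A_64_P042519 was higher by 0.63, 0.96 and 1.08, at or below the shift of all probes, with -0.13, 0.04 and 0.12 after quantile normalization. It lay above the medians of its own class of mean level, which were 0.61, 0.76 and 0.80. The remaining probes lay below the shift of all probes. The Gria3 probe A_43_P10280, 7143 bases from the first, differed from TBI by 0.04, 0.00 and 0.07, and after quantile normalization by -0.35, -0.52 and -0.48, the last 2 called lower. Gria2 A_64_P139290 differed by 0.51, 0.50 and 0.62, the last called, and turned to -0.49, -0.75 and -0.78. Likewise Gria4 A_42_P736258 differed by 0.22, -0.03 and 0.35, and Grik2 A_44_P252545 by 0.20, 0.40 and 0.15, where the call for TBI+JM6 (adjusted p = 0.0497 by limma) turned to -0.44 after quantile normalization. Grik5 differed by 0.17, 0.33 and 0.47. For Gria2, Gria3 and Grik2, the probe nearer the 3′ end of the transcript on the minus strand had the smaller difference in TBI+PMI (0.51 against 0.86 for Gria2, 0.04 against 2.10 for Gria3 and 0.20 against 0.63 for Grik2), and for Gria4 the larger (0.83 against 0.22). The probes of Gria3 and those of Gria4 are annotated to different transcript variants. After quantile normalization the probe pairs of Gria2 and Gria3 also differed in direction in all 3 comparisons.

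**Figure D3:**
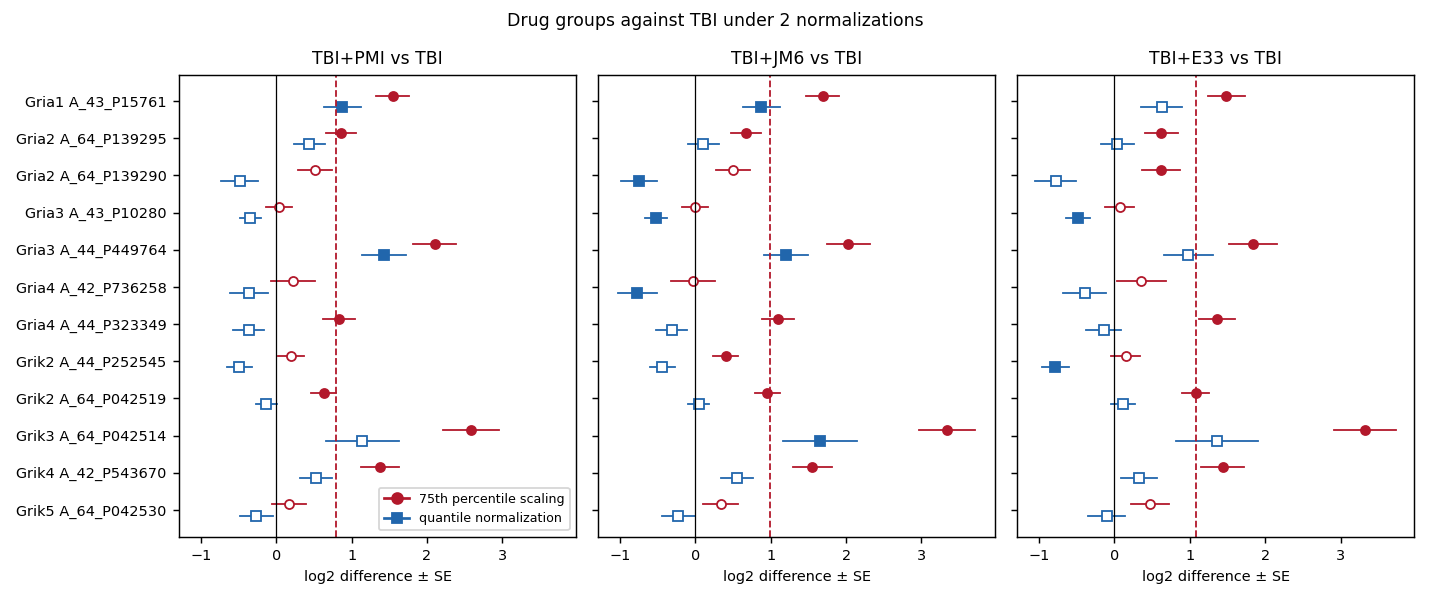
Log2 difference ± SE from TBI of the 12 probes in TBI+PMI, TBI+JM6 and TBI+E33, with scaling to the 75th percentile (circles) and after quantile normalization (squares). Filled symbols passed the adjusted p threshold, and the dashed line is the median of all probes under the first scaling. Gria1 and Gria3 A_44_P449764 lie to the right of the dashed line with circles and to the right of 0 with squares in each panel.

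Among the drugs, which were scanned in a single session, no member was called in any of the 3 comparisons by limma. Of all probes 0.0131% were called in TBI+JM6 vs TBI+PMI, 0.0175% in TBI+JM6 vs TBI+E33 and 0.11% in TBI+PMI vs TBI+E33, and the members with an unadjusted p under the threshold numbered 0, 0 and 2. The methods' t-test called 0 in each after adjustment, and 0, 0 and 1 at an unadjusted p with a change of over 1.2-fold. The 2 members were Grik2 A_64_P042519, lower in TBI+PMI than in TBI+E33 by 0.45 (95% interval -0.86 to -0.04, adjusted p = 0.277), and Gria4 A_44_P323349, lower by 0.53 (95% interval -1.06 to -0.00218, adjusted p = 0.319), where the median of all probes was -0.26. The Grik2 probe was at -1.88, -1.54 and -2.23 in TBI+PMI and at -1.46 and -1.41 in TBI+E33, with no overlap.

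For Gria1 the 95% interval was -0.34 to 0.63 for TBI+JM6 minus TBI+PMI, -0.34 to 0.75 for TBI+JM6 minus TBI+E33 and -0.48 to 0.61 for TBI+PMI minus TBI+E33. For Gria3 A_44_P449764 the intervals were -0.71 to 0.56, -0.52 to 0.90 and -0.45 to 0.97. Differences of these sizes could not be told from 0, which does not show that the drugs act alike. Grik3 had the widest intervals, with differences of 0.76 for TBI+JM6 minus TBI+PMI and -0.75 for TBI+PMI minus TBI+E33. The probe entered the test only through TBI+JM6 and TBI+E33, which favours these directions. The 2 values are therefore a description and no interval is given for them. Arrays did not overlap for 0, 2 and 4 of the 12 probes, against 14.8%, 17.2% and 41.1% of all probes. Within slides, TBI+JM6 minus TBI+PMI was 0.42 for Gria1 on the slide with 1 and 3 arrays, and TBI+JM6 minus TBI+E33 was 0.07 on the slide with 2 of each, while TBI+PMI and TBI+E33 shared no slide.

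**Figure D4:**
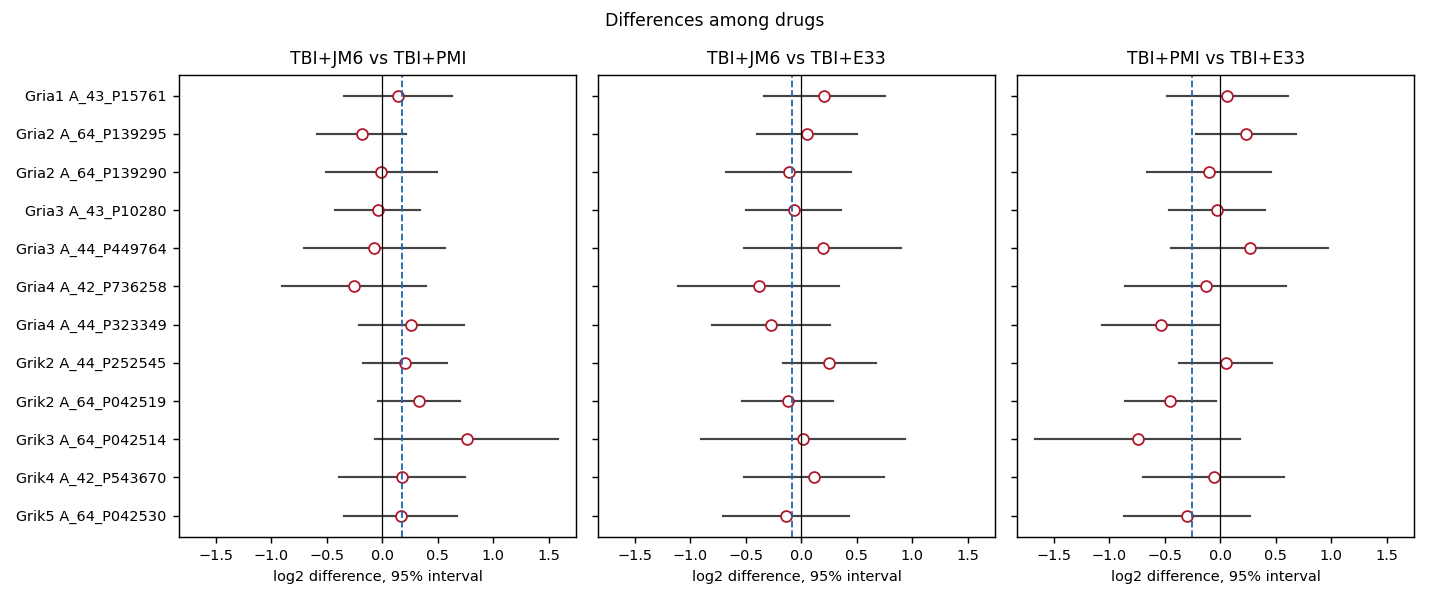
Log2 difference and 95% interval of the 12 probes between the drug groups. Open points did not pass the adjusted p threshold, and the dashed line is the median of all probes tested, at 0.18, -0.08 and -0.26. All points are open, and Grik3, which entered the test only through TBI+JM6 and TBI+E33, has the widest intervals.

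In order of mean level, Gria1 and Grik4 ran from TBI over Naïve and Sham to the drug groups, and neighbours within the drug session did not differ beyond their spread. Gria2 A_64_P139295 was at 1.25 ± 0.27 (SD, n = 2) in TBI, 1.19 ± 0.15 (n = 2) in Sham and 1.55 ± 0.14 (n = 3) in Naïve, and at 1.88 to 2.11 in the drug groups. Gria3 A_43_P10280 had the narrowest range of group means among the AMPA receptor probes, from 2.34 ± 0.27 (SD, n = 3) in TBI+JM6 to 2.64 ± 0.23 (n = 3) in Naïve. Grik5 ran from 1.85 ± 0.27 (SD, n = 3) in TBI to 2.32 ± 0.09 (n = 2) in TBI+E33. With the mean of each session taken off, the members most alike across the 16 arrays were Gria1 and Grik4 (r = 0.72), which is a description of arrays that share slides and groups. Among genes that are no member, Dlg3 was most like Gria1 (r = 0.95 over 16 arrays), followed by a probe without a gene name (0.93), Itpka (0.92), Pgbd5 (0.92) and Pwwp2b (0.92). For the other members the likest genes were Zbtb20 for Gria2 (0.85, 15 arrays), Scamp5 for Gria3 (0.92), RGD1305534 for Gria4 (0.93), Ckmt1 for Grik2 (0.84), RGD1559876 for Grik3 (0.95), Tnfrsf21 for Grik4 (0.94) and Bin1 for Grik5 (0.93).

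Receptor channels work with auxiliary subunits, scaffolds and organizers. These, the enzymes that edit receptor transcripts and the other ionotropic glutamate receptors made up 5 lists, of which 37 of 43 genes were tested by their brightest probe. In TBI against Sham, 11 of the 37 were called lower and 0 higher, where 6.49% of all probes were called lower and 2.93% higher. Of the 37, 5 entered the test only through drug groups, and without them 10 of 32 were called lower. The median difference of the 37 was -0.55, against -0.03 over all probes. The AMPA receptor auxiliary subunits gave 4 of 9: Cnih2, a cornichon that slows channel closing, at -1.56, and the transmembrane regulatory subunits Cacng8, Cacng7 and Cacng2 (stargazin) at -1.45, -1.41 and -1.14. Of 16 scaffold and trafficking genes 3 were called lower: Dlg4, the postsynaptic scaffold PSD-95, by 2.10 (SE 0.40, adjusted p = 0.0115 by limma), Pick1, which takes part in the removal of AMPA receptors from the membrane, by 2.83-fold, and Grip2, which was not well above background on any array of either group and has no fold. The list of other ionotropic glutamate receptors gave 3 of 6: Grin2b, at least 2.26-fold lower in TBI, where it was not well above background (adjusted p = 0.00818, measured means -6.79 and -4.79), Grin2c by 1.43, and Grin1, the obligatory NMDA receptor subunit, by 1.01. Of 3 kainate receptor auxiliary subunits and organizers C1ql2 fell, and of 3 RNA editing enzymes 0 did.

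C1ql2, which granule cells secrete and which gathers kainate receptors at mossy fiber synapses, stood at 1.07 and 1.10 on the Sham arrays, at 0.99, 0.73 and 0.58 on the Naïve arrays and at -1.43, -0.18 and -0.48 on the TBI arrays. The TBI arrays were below all others, with a difference of -1.78 from Sham (SE 0.42, adjusted p = 0.0237 by limma) and -1.47 from Naïve (adjusted p = 0.0441). C1ql2 was lower in TBI under every alternative, but was called in 10 of 18 against Sham and in 5 of 19 against Naïve. Granule cell markers were also lower in TBI (0.154 to 0.215) than in Sham (0.331 to 0.441) and Naïve (0.288 to 0.406). Of the 4 tested, 1 was called lower against Sham and 0 against Naïve, and their part was not tested. Dlg4 stood at -1.20 and -1.15 on the Sham arrays, at -3.51, -2.66 and -3.06 on the Naïve arrays and at -2.36, -3.42 and -4.02 on the TBI arrays. Here it was the Sham arrays that stood apart, and the difference of TBI from Naïve was -0.19 (adjusted p = 0.823). Cnih2 stood at 2.79 and 2.81 in Sham, 0.59, 0.77 and 0.90 in Naïve and 1.80, 0.71 and 1.22 in TBI, with the Sham arrays again above all others.

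In Sham against Naïve 7 of the 37 were called higher and 0 lower, where 6.57% of all probes were called higher: Cnih2, Cacng7, Cacng8, Dlg4, Pick1, Grin1 and Grip2, the last not well above background on any array of either group. Without the 5 genes that entered only through drug groups, 6 of 32 were called higher. The count of 7 was 3 with quantile normalization, 4 with the authors' matrix and 0 with normexp or E1A control spots. It was 7 with the percentile over all probes and 8 with a GC trend removed. All 7 were among the 11 called lower in TBI than in Sham, but both comparisons use the same 2 Sham arrays, so this overlap is in part built in. In TBI against Naïve 2 were called lower and 0 higher, where 1.73% of all probes were called lower: C1ql2 and Grin2b. This count stayed at 2 with the percentile over all probes or a GC trend removed. It was 0 with quantile normalization, normexp, the authors' matrix or E1A control spots. The count of 11 was 2 without Sham 1, 1 without Sham 2, 6 without TBI 2, 4 without TBI 3 and 17 without TBI 1, and it was 0 with slide as a block or with normexp background correction. Oligodendrocyte markers moved alongside, with 3 of 6 lower in TBI than in Sham and a summed level of 110 to 115 in Sham and 54.0 to 109 in TBI, and leukocyte markers went the other way (0.304 to 0.453 in Sham and 0.667 to 3.26 in TBI, 3 of 6 higher), and their part was not tested.

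Against TBI, 26, 33 and 31 of the 37 were called higher in TBI+PMI, TBI+JM6 and TBI+E33 and 0 lower, where 56.7%, 69.9% and 70.2% of all probes were called higher. Without the 5 genes that entered only through drug groups the counts were 21, 28 and 26 of 32. The medians of the 37 were 1.24, 1.61 and 1.38, beside a shift of all probes of 0.79, 0.99 and 1.08. After quantile normalization 7, 12 and 4 of the 37 were called higher and 0 lower, with medians of 0.29, 0.40 and 0.38, where 9.96%, 13.9% and 10.4% of all probes were called higher. Without the same 5 genes the counts were 6, 10 and 3 of 32. Among the drugs 0 of the 37 were called in each of the 3 comparisons by limma.

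**Figure D5:**
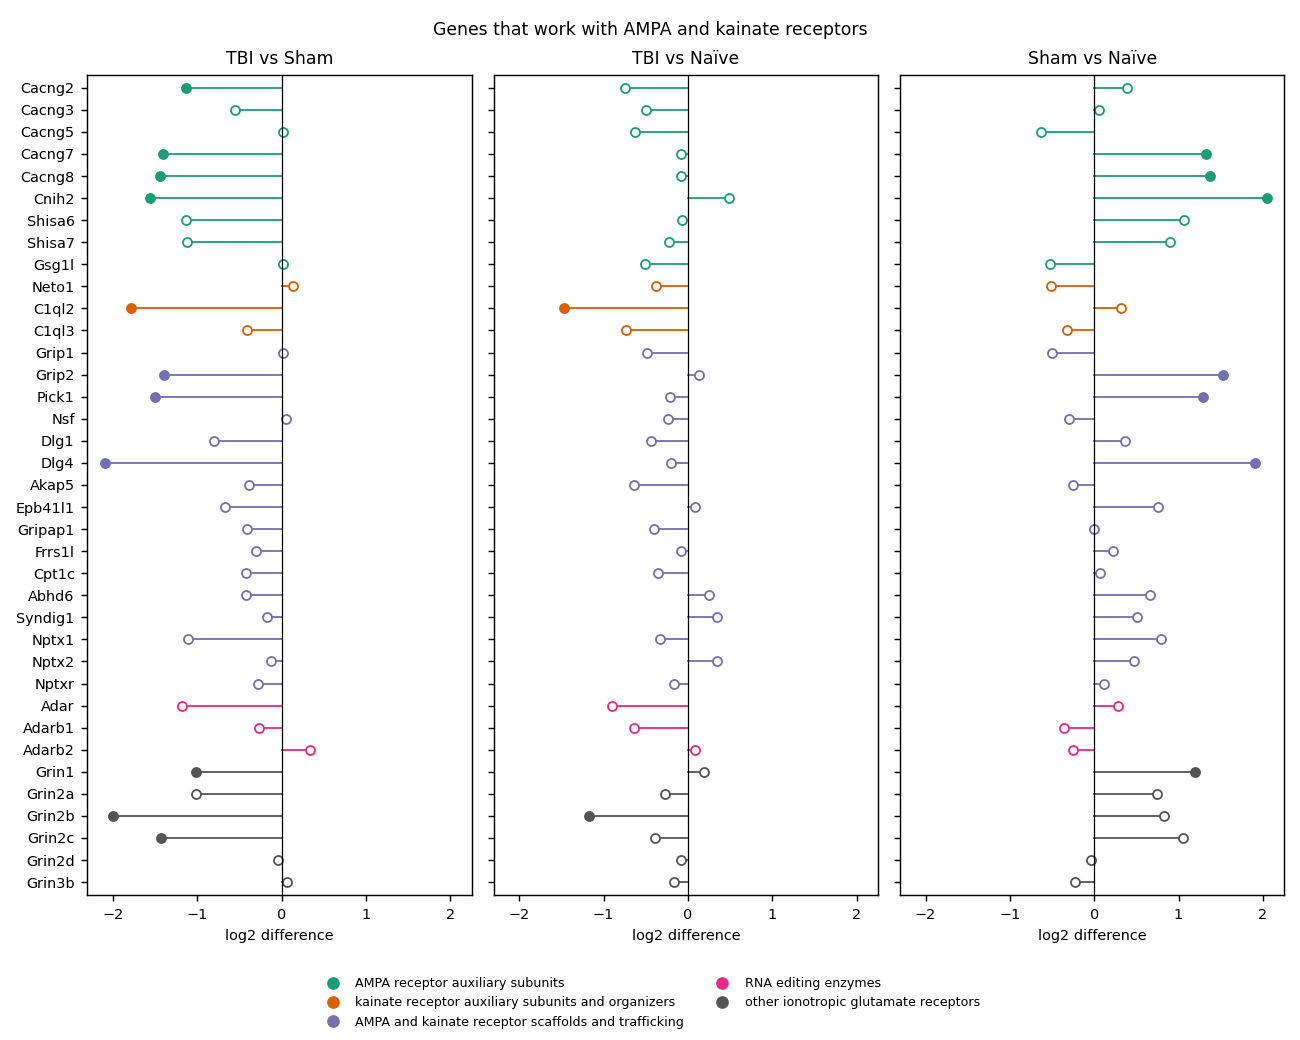
Log2 difference (x axis) of the 37 tested genes of 5 lists for the 3 comparisons among the Naïve, Sham and TBI groups, with colours for the lists. Filled points passed the adjusted p threshold of 0.05: 11 lower in TBI than in Sham, 2 lower in TBI than in Naïve and 7 higher in Sham than in Naïve.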

How the data were processed

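Total RNA was amplified, labelled and hybridised to a 1-colour Agilent rat array of 60-base probes by the authors. According to the headers of the deposited files, intensity was extracted, background subtracted and detrended within each array with Agilent Feature Extraction 9.5.3.1. The authors' deposited matrix holds linear ratio values, lowest 0.02, median 0.14 and highest 352.62 on each array, whose further normalization is not stated in it, and it was used as an alternative. Here 42877 non-control spots were averaged by probe without outlier-flagged spots, divided by the array's 75th percentile of probes well above background, and put on the log2 scale. A probe was tested if all arrays of 1 or more groups had it well above background, and the fit was made with limma 3.58.1 in R 4.3.3 (1 model of 6 groups, 10 residual degrees of freedom), with Benjamini-Hochberg adjustment over all probes. Figures were drawn with matplotlib 3.10.9. The number of arrays limits the precision, and p-values measure the spread between these arrays. All member probes were reported. Pathway genes were counted by their brightest probe and up to 4 per list named among those called in TBI vs Sham or among drugs, by size. Genes most alike were ranked by Pearson correlation after removal of session means. An at least N-fold bound sets the brighter mean against, per array of the dim group, the higher of the probe's own signal and the lowest signal of probes well above background. The code was tested on simulated data with 200 of 21901 probes changed. For TBI vs Sham, 30% of 2-fold and 75% of 4-fold changes were called, and for TBI+JM6 vs TBI+PMI 42% and 71%. A missing call thus does not show that a transcript was unchanged. Members and lists were chosen with earlier results of these data known, and 1 gene was taken out of the lists afterwards and is not reported here. Alternatives changed scaling, background correction, filter, test, slide or replicate block and arrays included. With slide as a random block, the estimated correlation of arrays on the same slide was -0.087. As this is below 0, that setting does not adjust for differences between slides.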

Additional observations from a re-analysis of the deposited data

How the results depend on the processing

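The number of member probes called in TBI vs Sham was 1, and 0 with quantile normalization, normexp, the authors' matrix, E1A control spots, slide as a fixed block, the compared groups alone or the methods' t-test with adjustment, 2 with the percentile over all probes, the filter for all 16 arrays, removal of a GC trend (chosen after seeing the data) or slide as a random block, and 0 to 2 with 1 array left out. In TBI vs Naïve it was 0, and 2 with the percentile over all probes, 1 with the filter for all 16 arrays, with slide as a random block or with the replicate block, and 3 by the methods' t-test without adjustment. In Sham vs Naïve it was 1, and 2 with the percentile over all probes or the unadjusted t-test, 0 with normexp, E1A spots, no filter, GC trend removed, slide as a fixed block, the compared groups alone or the adjusted t-test, and 0 to 1 with 1 array left out. Against TBI, the 7 probes of TBI+PMI, all higher, became 2 with quantile normalization, normexp or the authors' matrix and 3 with E1A spots, again all higher. With the percentile over all probes 4 were called higher and 2 lower, and with 1 array left out 7 to 8 were called. The 8 of TBI+JM6, all higher, became 4 with normexp and 3 with E1A spots, again all higher, and 6 to 8 with 1 array left out. With the authors' matrix 2 were called higher and 3 lower. Quantile normalization gave 3 higher and 3 lower, and the percentile over all probes 4 higher and 2 lower. The 8 of TBI+E33, all higher, became 2 with normexp or E1A spots, again all higher. Quantile normalization left 0 called higher and 2 lower. The percentile over all probes gave 2 higher and 2 lower, and the authors' matrix 1 higher and 2 lower. In TBI+PMI vs TBI+E33 the unadjusted t-test gave 1, and 0 was kept under all other settings among drugs. The 11 pathway genes lower in TBI than in Sham (alternatives chosen after seeing the data) became 6 with quantile normalization, 5 with the authors' matrix, 1 with E1A spots, 0 with normexp, slide as a fixed block, the compared groups alone or the adjusted t-test, and 1 to 17 with 1 array left out.

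Among the called differences of member probes, those whose direction turned were all against TBI. For TBI+PMI, Gria4 A_44_P323349 was -0.37 with quantile normalization and -0.32 with the authors' matrix, Grik2 A_64_P042519 was -0.0189 with the percentile over all probes, -0.13 with quantile normalization and -0.11 with the authors' matrix, and Grik3 was -0.12 with normexp. For TBI+JM6, Gria2 A_64_P139295 was -0.12 with the percentile over all probes, Gria4 A_44_P323349 was -0.32 with quantile normalization and -0.31 with the authors' matrix, and Grik2 A_44_P252545 was -0.39, -0.44, -0.43 and -0.16 with the percentile over all probes, quantile normalization, the authors' matrix and E1A spots. For TBI+E33, Gria2 A_64_P139295 was -0.21 with the percentile over all probes and -0.0220 with E1A spots, Gria2 A_64_P139290 was -0.21, -0.78 and -0.71 with the percentile over all probes, quantile normalization and the authors' matrix, and Gria4 A_44_P323349 was -0.14 and -0.13 with the last of these. Among the pathway genes called among the Naïve, Sham and TBI groups, Grin2b and Grip2 turned under 1 alternative each in TBI against Sham, to 0.0429 and 0.405, and Grin2b under 1 in TBI against Naïve, to 0.299. The causes were not tested. Deviations of same-numbered arrays correlated at 0.15 and 0.18 for TBI with Sham (2 pairs), against -0.18 to 0.06 for other-numbered arrays. For TBI with Naïve the values were -0.01 to 0.06, against -0.06 to 0.02. The deviations of 2 Sham arrays from their mean are opposite by construction, so this check cannot decide whether replicate numbers pair the arrays. The replicate block gave 1 call for TBI against Sham, 1 for TBI against Naïve, 7, 7 and 8 for the drugs against TBI, and 1 for Sham against Naïve, where Gria4 A_42_P736258 had adjusted p = 0.0568 by limma.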
